A study of Mus musculus with 4 samples.

Results

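Transcript levels of the protein tyrosine phosphatases and dual-specificity phosphatases were examined in mouse peritoneal macrophages after an overnight culture in which transforming growth factor beta 2 (TGFb2) or PBS was added. The members were all probe sets whose single gene symbol starts with Ptpn (cytosolic tyrosine phosphatases) or Ptpr (receptor-type tyrosine phosphatases) or is Dusp followed by a digit (dual-specificity phosphatases). The rule found 62 of the 12488 probe sets of the array, and these stood for 42 of its 8251 singly annotated genes. In both groups the donors were female BALB/c mice, 6 to 8 weeks of age, whose peritoneal cells had been harvested 4 days after 2 ml of 3% thioglycolate, which recruits monocyte-derived macrophages. One group received porcine TGFb2 (5 ng, with no volume given) and the other PBS, both in serum-free medium with an iron-free transferrin supplement, and RNA came from the adherent cells, over 95% of which carried the macrophage marker F4/80. There were 2 Affymetrix arrays for TGFb2 and 2 for PBS. Nothing in the labels says whether replicates were separate cultures or animals, so p-values reflect array-to-array spread alone, and that spread may be technical.

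Tyrosine phosphatases remove phosphate from tyrosine. Many of them thereby oppose the Src-family, JAK and receptor kinases that carry signals from Fc receptors, integrins and cytokine receptors in macrophages, while some activate Src-family kinases. The MAP kinase phosphatases among the dual-specificity enzymes remove phosphate from both threonine and tyrosine in the activation loop of ERK, JNK and p38. Several of them are transcribed rapidly after stimulation and thereby limit the kinases that induced them. Receptor-type members carry extracellular domains. CD45 (Ptprc), which is found on nearly all white blood cells, acts on the inhibitory tyrosine of Src-family kinases and so can activate them.

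The values are MAS5 signals, which are linear intensities per probe set. Differences are given as TGFb2 minus PBS on the log2(signal + 15) scale, which understates the change of dim probe sets, with limma's standard error (SE) and with p-values adjusted by Benjamini-Hochberg over all 7453 tested probe sets. Levels of different probe sets are not comparable with each other. Log2 values correlated at 0.9677 between the TGFb2 arrays, at 0.9787 between the PBS arrays and at 0.9545 to 0.9663 between groups. All 11 macrophage markers of the fixed list, among them Adgre1 (F4/80), Csf1r and Cd68, were on the array and above the level filter, and 0 of them passed the threshold. Their summed signal, mostly that of Ctss, Cd68 and Lyz2, was 28075 and 28031 on the TGFb2 arrays and 25149 and 25549 on the PBS arrays. Both TGFb2 arrays lay above both PBS arrays for Ctss, Cd68, Csf1r, Itgam, Msr1, Fcgr1 and Mertk. They lay below both for Lyz2 and Mrc1, and the groups overlapped for Cd14 and Adgre1. Fcgr1 had 480 and 316 with TGFb2 and 178 and 162 with PBS (limma adjusted p = 0.066).

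Of the 62 member probe sets, 30 (28 genes) had a mean level above the filter, a signal of about 24.0, and were tested. None of the 30 passed an adjusted p of 0.05 in limma, where 1.18% of all tested probe sets passed. At an unadjusted p under 0.05 there were 6 members, all lower with TGFb2, where 11.6% of all tested probe sets reached that level in either direction and 5.86% did so with lower signals. The largest differences were those of Dusp1, the nuclear MAP kinase phosphatase, and of one probe set of Ptprc (CD45). Both TGFb2 arrays lay below both PBS arrays in 12 of 30 members, against 21.7% of all tested probe sets, and above both in 1 of 30, against 21.1%. The median member differed by -0.17, and the median of all tested probe sets by -0.00082. Without the level filter, over all 62 members, the median was 0.046, on the other side of 0. The matching median over all probe sets is not given here. Among all probe sets below the filter, both TGFb2 arrays lay above both PBS arrays in 21.9% and below both in 11.1%.

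The promoter sequences of Dusp1, Dusp2 and Ptprc are shown because Dusp1 and Ptprc differed most, and because Dusp2 is the other inducible nuclear MAP kinase phosphatase among the members and its groups overlapped. Dusp4 and Dusp5, of the same class, had no probe set that met the member rule. Each line gives the 250 bases before the annotated start, 5′ to 3′ on the strand of the gene, from RefSeq on GRCm38.p6. Dusp1 lies at chr17:26508473-26508722 on the minus strand, Dusp2 at chr2:127335909-127336158 on the plus strand, and Ptprc, at the more upstream of its 2 listed starts, at chr1:138175306-138175555 on the minus strand. Capitals mark TGACG (the core of the cAMP response element, which inside the full palindrome TGACGTCA is read on both strands and overlaps itself) and the E-box CACGTG in the Dusp promoters, and GAGGAA (the core bound by the myeloid factor PU.1) in Ptprc.
Dusp1: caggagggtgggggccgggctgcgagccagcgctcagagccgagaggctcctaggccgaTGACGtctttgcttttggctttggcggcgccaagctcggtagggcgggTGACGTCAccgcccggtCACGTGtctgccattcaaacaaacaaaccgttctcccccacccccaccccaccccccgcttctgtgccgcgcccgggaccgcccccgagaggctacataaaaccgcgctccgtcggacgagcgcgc
Dusp2: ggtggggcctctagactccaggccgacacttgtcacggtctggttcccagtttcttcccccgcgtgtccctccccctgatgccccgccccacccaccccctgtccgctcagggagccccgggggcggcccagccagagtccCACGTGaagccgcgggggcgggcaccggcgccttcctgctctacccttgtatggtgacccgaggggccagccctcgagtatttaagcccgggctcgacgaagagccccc
Ptprc: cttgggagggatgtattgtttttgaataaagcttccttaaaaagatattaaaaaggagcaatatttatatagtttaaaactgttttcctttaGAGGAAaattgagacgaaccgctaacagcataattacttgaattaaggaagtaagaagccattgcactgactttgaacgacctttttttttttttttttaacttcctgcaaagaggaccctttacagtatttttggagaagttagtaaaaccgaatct
The Dusp1 window held a full cAMP response element from 143 to 136 bases before the start, a further TGACG from 191 to 187 and an E-box from 126 to 121. That of Dusp2 held an E-box from 109 to 104 bases before the start and no TGACG in these 250 bases. That of Ptprc held GAGGAA from 158 to 153 bases before the start.

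Motifs were searched on both strands in all 32851 promoter windows of that length, of which 47 belonged to 34 member genes. TGACGTCA was found in 4 of the 47 member windows (Dusp1, Dusp8, Ptpn11 and Ptpru) and in 1.55% of all windows. TGACG, which the full element contains, was in 16 member windows (34.04%) and in 17.8% of all windows. CACGTG was in 3 member windows, those of Dusp1, Dusp2 and Ptprs, and in 6.02% of all. GAGGAA was in 18 member windows (38.3%) and in 23.3% of all. The Smad palindrome GTCTAGAC was in 0 member windows and in 0.167% of all. These are matches of letters in a short window and say nothing of binding.

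Among the MAP kinase phosphatases, Dusp1 (MKP-1), which acts on p38, JNK and ERK in the nucleus and limits cytokine production by stimulated macrophages, had signals of 355 and 268 on the TGFb2 arrays and 778 and 553 on the PBS arrays. The groups did not overlap, and the lowest PBS array stood above the highest TGFb2 array by more than the spread within the TGFb2 group but by less than that within the PBS group. Mean signals were 311 ± 61.4 with TGFb2 and 665 ± 159 with PBS (SD over 2 arrays each), 2.14-fold higher in PBS. The log2 difference was -1.05 ± 0.22 (SE, 95% interval -1.56 to -0.54, limma adjusted p = 0.079), which does not pass the threshold. Without PBS replicate 2 it was -1.29, and it passed there if the level filter was recomputed on the other 3 arrays (limma adjusted p = 0.0496) but not with the tested probe sets held fixed (limma adjusted p = 0.075).

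**Figure D1:**
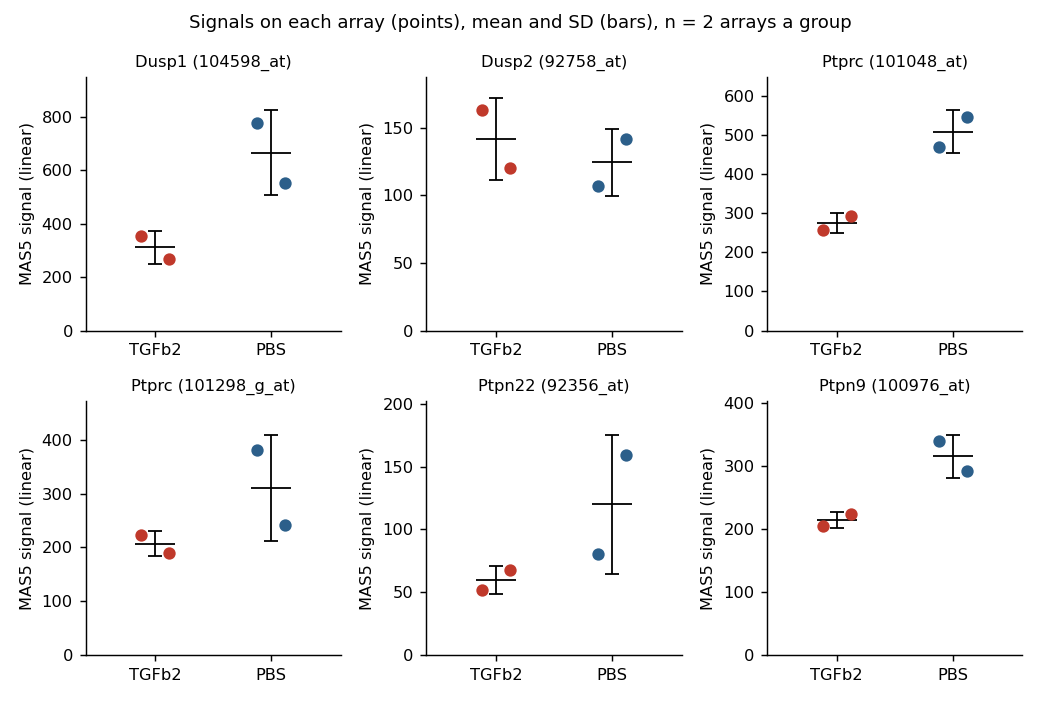
MAS5 signals on a linear scale for Dusp1, Dusp2, the pair of brighter Ptprc probe sets, Ptpn22 and Ptpn9, with TGFb2 on the left and PBS on the right of each panel. Points are single arrays, and bars give the mean and SD of 2 arrays. Both TGFb2 points lie below both PBS points in every panel but that of Dusp2.

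Dusp2 (PAC-1), an inducible nuclear phosphatase of immune cells, had signals of 163 and 120.1 with TGFb2 and 107 and 142 with PBS. Its groups overlapped, and its difference of 0.17 had a 95% interval from -0.35 to 0.68 (limma adjusted p = 0.83). Dusp6 (MKP-3), the cytoplasmic phosphatase of ERK whose transcription follows ERK activity, had signals of 158 and 119.8 with TGFb2 and 176 and 155 with PBS. These also overlapped, with a difference of -0.24 (95% interval -0.70 to 0.22, limma adjusted p = 0.70) that was -0.42 without TGFb2 replicate 1 and -0.06 without TGFb2 replicate 2. Dusp16 (MKP-7), which acts on JNK and p38, had 38.7 and 37.7 with TGFb2 and 43.4 and 51.2 with PBS, without overlap, and a difference of -0.23 ± 0.23 (SE, limma adjusted p = 0.77) that was -0.13 without PBS replicate 2. Its second probe set and those of Dusp8, Dusp9 and a second of Dusp6 lay below the level filter, with signals of 3.2 to 20.2 on the 4 arrays.

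The 3 atypical dual-specificity phosphatases, which lack the MAP kinase binding domain, had small differences above 0. Dusp12, a zinc-binding member, had signals of 178 and 162 with TGFb2 and 102 and 170.4 with PBS, an overlap, and a difference of 0.33 ± 0.24 (SE, limma adjusted p = 0.67). Dusp19, a regulator of the JNK pathway, had 129.5 and 118 with TGFb2 and 109.8 and 117 with PBS. It was the only tested member with both TGFb2 arrays above both PBS arrays, by a difference of 0.11 (95% interval -0.30 to 0.53, limma adjusted p = 0.87) that was 0.05 without TGFb2 replicate 1 and 0.17 without TGFb2 replicate 2. Dusp11, which acts on the 5′ end of RNA rather than on protein, differed by 0.05 (limma adjusted p = 0.96).

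The SH2-domain phosphatases are recruited by inhibitory receptors or growth factor adaptors through phosphotyrosine. Ptpn6 (SHP-1), the form that restrains signalling in blood cells, had signals of 214 and 275 with TGFb2 and 318 and 316 with PBS. The PBS arrays lay close together and above both TGFb2 arrays, and the difference was -0.37 ± 0.18 (SE, limma adjusted p = 0.51). It was -0.20 without TGFb2 replicate 1 and -0.54 without TGFb2 replicate 2. This probe set is of the type that can share probes with related transcripts. Ptpn11 (SHP-2) had only a dim probe set, at 18.4 and 1.9 with TGFb2 and 19.3 and 3.2 with PBS, and was not tested. In that probe set replicate 1 was above replicate 2 in both groups.

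Ptpn1 (PTP1B), which acts on the insulin and leptin receptors and on JAK2, had 741 and 1092 with TGFb2 and 755 and 968 with PBS. The arrays of each group spread further than the groups differed, and the difference was 0.07 (95% interval -0.43 to 0.58, limma adjusted p = 0.94). Its relative Ptpn2 (TC-PTP), which acts on JAK1, had 51.4 and 31.3 with TGFb2 and 52.6 and 60.8 with PBS, where the nearest arrays of the groups were almost equal. Its difference was -0.37 ± 0.26 (SE, limma adjusted p = 0.65), and it ran from -0.63 without TGFb2 replicate 1 to -0.11 without TGFb2 replicate 2.

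Among the PEST-type phosphatases, Ptpn22 (PEP), which binds the kinase Csk and acts on Src-family kinases, had signals of 51.9 and 67.9 with TGFb2 and 80.5 and 159 with PBS. The groups did not overlap, but the PBS arrays stood far apart. The difference of -0.79 ± 0.30 (SE, limma adjusted p = 0.37) was -1.23 without PBS replicate 1 and -0.36 without PBS replicate 2. A second Ptpn22 probe set read 9.5 on TGFb2 replicate 1 and 0.3 to 0.6 on the other arrays. Ptpn18 had 311 and 226 with TGFb2 and 214 and 262 with PBS, an overlap, and a difference of 0.15 (limma adjusted p = 0.83). Ptpn12 (PTP-PEST), an enzyme of focal adhesions, had 54.1 and 8.5 with TGFb2 and 10.7 and 60.7 with PBS. One array of each group was high and the other low, and its 95% interval, -1.58 to 1.32, was the widest among the tested members.

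Of the other cytosolic phosphatases, Ptpn9 (MEG2), which sits on secretory vesicles, had 205 and 223 with TGFb2 and 340 and 292 with PBS with little spread inside either group. Its difference was -0.53 ± 0.17 (SE, 95% interval -0.93 to -0.13, unadjusted p = 0.0166 and adjusted p = 0.27 in limma). Ptpn23 (HD-PTP), a protein of endosomal sorting, had 55.7 and 91.4 with TGFb2 and 120.3 and 106 with PBS, without overlap, and a difference of -0.56 ± 0.24 (SE, limma adjusted p = 0.43). That difference was -0.27 without TGFb2 replicate 1 and -0.86 without TGFb2 replicate 2. The FERM-domain members Ptpn14 and Ptpn21, which associate with the cell cortex, overlapped between groups and differed by -0.06 and -0.15 (limma adjusted p = 0.96 and 0.90). Ptprr, a phosphatase that docks to MAP kinases and is best known in neurons, overlapped too and differed by 0.14 (limma adjusted p = 0.89).

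**Figure D2:**
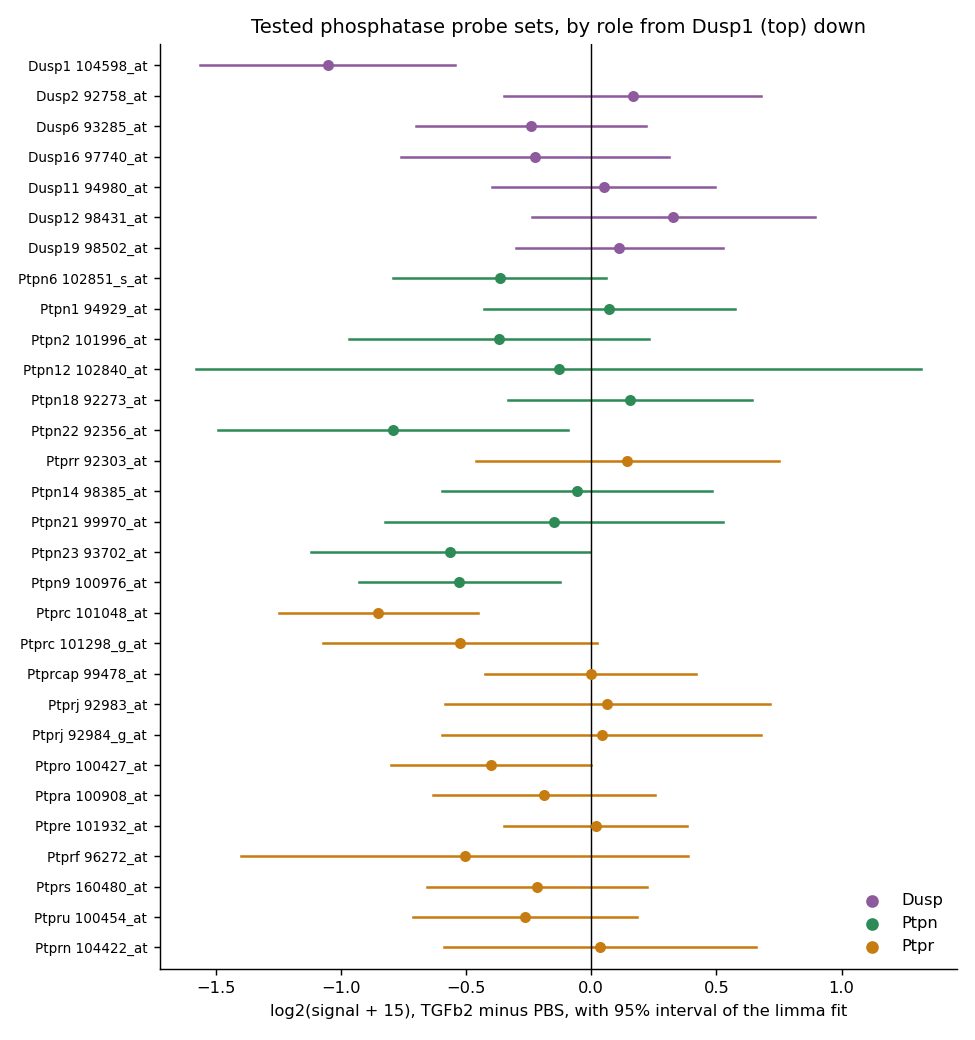
Log2 differences of the 30 tested probe sets, TGFb2 minus PBS on the log2(signal + 15) scale, with the 95% interval of the limma fit as a line and genes ordered by role from the MAP kinase phosphatases at the top to the receptor types at the bottom. The whole interval lies below 0 for 6 probe sets, those of Dusp1, Ptpn22, Ptpn9, Ptpn23, Ptpro and the brightest of Ptprc, and the other intervals span 0.

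The receptor type with the largest difference was Ptprc (CD45). Its brightest probe set had signals of 256 and 293 with TGFb2 and 468.5 and 547 with PBS. Both TGFb2 arrays were well below both PBS arrays, with means of 274 ± 25.7 and 508 ± 55.2, 1.85-fold higher in PBS. The log2 difference was -0.85 ± 0.17 (SE, 95% interval -1.25 to -0.45, limma adjusted p = 0.07), which does not pass. A second probe set, of a type that can share probes with others, had 223 and 190.5 with TGFb2 and 381 and 241 with PBS. These did not overlap either, and this probe set differed by -0.53 ± 0.23 (SE, limma adjusted p = 0.45). Without PBS replicate 1 its difference was -0.21, and without PBS replicate 2 it was -0.84. The remaining Ptprc probe set was near the floor of the scale, at 2.8 and 4.5 with TGFb2 and 0.3 and 0.3 with PBS, and was not tested. Ptprcap, a CD45-associated protein of lymphocytes that is no phosphatase, had 90.4 and 92.5 with TGFb2 and 92.9 and 90.4 with PBS, a difference of -0.00268 (95% interval -0.42 to 0.42, limma adjusted p = 0.9987).

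In bulk RNA, fewer cells with Ptprc and less Ptprc RNA per cell cannot be told apart. Markers of other cells are given as sums by list. Fibroblasts and mesothelial cells lack CD45. The summed signal of their 14 markers was 2211 and 1875 with TGFb2 and 2522 and 1797 with PBS. These sums overlap, but they join genes that moved in opposite directions, so the overlap does not show that such cells were equally frequent. In limma 3 of the 11 tested rose (Col1a1, Fbln2 and Col5a2) and 1 fell. The 1 was Dcn, the largest part of the PBS sums, at 318.7 and 256.5 with TGFb2 and 1130.5 and 746.8 with PBS. The sum of 10 neutrophil markers was 1266 and 1287 with TGFb2 and 660.1 and 877 with PBS, and S100a8, the 1 of its 5 tested genes that passed, rose and made up most of the difference between the groups, while Ly6g and Ngp read at most 11.7 on any array. The 10 mast cell and eosinophil markers summed to 382 and 263 with TGFb2 and 201 and 149.9 with PBS, without overlap, and 0 of the 2 tested passed. For 12 T and NK cell markers the sums, 220.4 and 152 with TGFb2 and 183 and 102 with PBS, overlapped, and 0 of the 2 tested passed. Cd3e read at most 11.8, but Cd2 had 29.4 and 22.7 with TGFb2 and 5.5 and 5.8 with PBS, and Prf1 had 24.7 and 11.3 with TGFb2 and 5.4 and 4.6 with PBS. For 7 B cell markers they were 476 and 417 with TGFb2 and 397 and 414 with PBS, and for 5 dendritic cell markers 1202 and 1349 with TGFb2 and 1205 and 1220 with PBS, with 0 passing in either list. No marker was at 0, and the part of these cells in the values of Ptprc and of the other members was not tested.

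Ptpro, a receptor phosphatase of podocytes that macrophages also transcribe, had 157 and 141 with TGFb2 and 198 and 205 with PBS. These did not overlap, and the difference was -0.40 ± 0.17 (SE, unadjusted p = 0.0489 and adjusted p = 0.43 in limma). Ptprj (CD148), which with CD45 activates Src-family kinases in macrophages, had a pair of probe sets close to the filter. The dimmer of these had 31.2 and 26.7 with TGFb2 and 32.8 and 21.9 with PBS, and the brighter had 31.8 and 39.9 with TGFb2 and 42.7 and 27 with PBS. Both overlapped, and they differed by 0.06 and 0.04 (limma adjusted p = 0.96 and 0.98). The brighter is of a type that can share probes with others. A further probe set read 2.6 to 7.2 on the 4 arrays.

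The short receptor phosphatases Ptpre and Ptpra act on Src-family kinases and ion channels. Ptpre had 613 and 701 with TGFb2 and 611.5 and 686 with PBS, and its difference of 0.02 had one of the narrowest intervals, -0.35 to 0.38 (limma adjusted p = 0.98). Ptpra had 221 and 287 with TGFb2 and 308 and 271 with PBS, an overlap, with a difference of -0.19 (95% interval -0.63 to 0.25, limma adjusted p = 0.76) that was -0.01 without TGFb2 replicate 1 and -0.37 without TGFb2 replicate 2. Its other probe set read 0.9 to 6.8 on the 4 arrays.

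Among adhesion-type receptors, Ptprs, a receptor for proteoglycans, had 111 and 142 with TGFb2 and 148 and 149 with PBS. Ptpru, a MAM-domain member, had 95.3 and 77.1 with TGFb2 and 107 and 105 with PBS. Neither overlapped between groups, and their differences were -0.22 and -0.26 (limma adjusted p = 0.72 and 0.67). That of Ptprs was -0.06 without TGFb2 replicate 1 and -0.37 without TGFb2 replicate 2. That of Ptpru was -0.39 without TGFb2 replicate 1 and -0.13 without TGFb2 replicate 2. Ptprf (LAR) had 9.5 and 35.1 with TGFb2 and 41.4 and 28.9 with PBS, and it was 1 TGFb2 array that was low (difference -0.51, limma adjusted p = 0.68). Ptprn, a granule protein of neuroendocrine cells without phosphatase activity, overlapped and differed by 0.03 (limma adjusted p = 0.98).

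**Figure D3:**
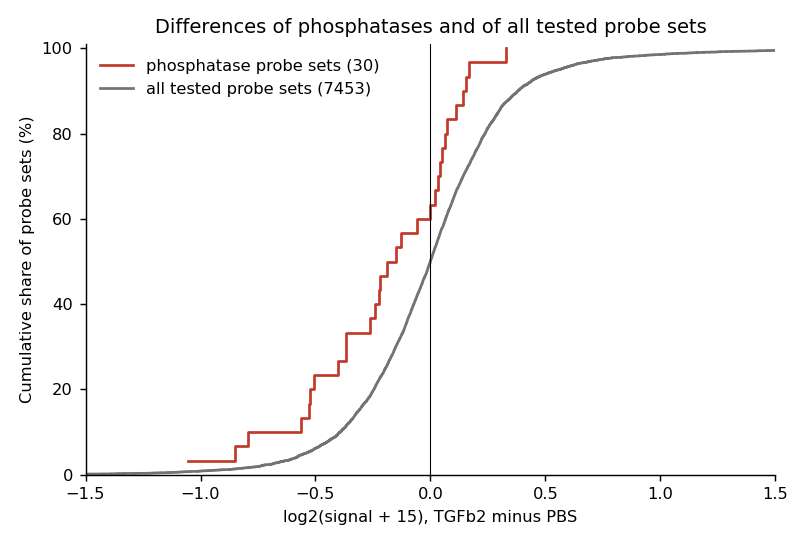
Cumulative share of probe sets by log2 difference, TGFb2 minus PBS, for the 30 tested phosphatase probe sets and for all 7453 tested probe sets, with the axis limited to 1.5 on either side of 0. The phosphatase curve lies to the left, with a median of -0.17 against -0.00082, and 19 of its 30 differences are below 0, against 50.2% of all tested probe sets. Over all 62 members without the filter the median was 0.046, for which no matching median over all probe sets is given.

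By family, the 7 tested Dusp probe sets had a median difference of 0.05 and ran from -1.05 to 0.33, the 10 Ptpn probe sets had a median of -0.26 and ran from -0.79 to 0.15, and the 13 Ptpr probe sets had a median of -0.19 and ran from -0.85 to 0.14. Below 0 lay 3 of the Dusp, 8 of the Ptpn and 8 of the Ptpr probe sets. These summaries cover only the probe sets above the filter and describe them.

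The other 32 member probe sets lay below the filter, with signals of 0.2 to 37.3 on any array, and 14 of the 42 genes had no probe set above it. These genes were Dusp8, Dusp9, Ptpn5, Ptpn11, Ptpn13, Ptpn20, Ptprb, Ptprd, Ptprg, Ptprk, Ptprm, Ptprn2, Ptprv and Ptprz1. Both TGFb2 arrays lay above both PBS arrays in 10 of the 32, against 21.9% of all probe sets below the filter, and below them in 3, against 11.1%. TGFb2 replicate 1 gave the highest of the 4 readings in 15 of the 32, against 45.8% of all probe sets below the filter. The probe sets of Ptpn5, a brain phosphatase, read 1.6 to 15.6, those of Ptprv 0.3 to 16.3, and the second of Ptprr 0.2 to 12.7. Several of the high readings of TGFb2 replicate 1 had no counterpart in TGFb2 replicate 2. Ptpn20 read 17.5 and 0.3 with TGFb2 and 0.7 and 1.6 with PBS, and the brightest of the Ptprd probe sets read 22.7 and 3.1 with TGFb2 and 3.9 and 4.7 with PBS. The other Ptprd probe sets read 1.5 to 5.8.

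Among the dim genes with several probe sets, those of Ptprm and of Ptprz1 lay higher on both TGFb2 arrays throughout. The 3 of Ptprz1, a receptor of glial cells, read at most 7.3 on any array. Ptprm, a MAM-domain receptor that binds its own kind on neighbouring cells, read 20.7 and 25.7 with TGFb2 and 4.8 and 5.4 with PBS in one probe set. The other read 19.6 and 29.5 with TGFb2 and 12.6 and 14.8 with PBS. In a fit without the level filter these differed by 0.92 ± 0.20 and 0.45 ± 0.25 (SE, limma adjusted p = 0.24 and 0.68), so neither passed. Ptprm is also transcribed in endothelium. The 5 endothelial markers of the fixed list summed to 193 and 245 with TGFb2 and 191 and 204 with PBS, and Cdh5 read at most 4.9. Kdr had 59.3 and 36.5 with TGFb2 and 29.4 and 16.3 with PBS (limma adjusted p = 0.42), and Tek had 10.6 and 5.4 with TGFb2 and 0.6 and 1.8 with PBS, both without overlap. The other markers did not share this direction. Vwf, the brightest, had 113.3 and 193.2 with TGFb2 and 150.7 and 162.4 with PBS, an overlap. Tie1 overlapped too, at 6.6 and 7.1 with TGFb2 and 6 and 18.9 with PBS. Cdh5 was lower with TGFb2, at 3.6 and 2.6 against 4.2 and 4.9. The part of such cells in the Ptprm readings was not tested. Probe sets disagreed for Ptprk, a close relative, whose brighter probe set read 18.5 and 18.2 with TGFb2 and 23.6 and 24.6 with PBS, while its other probe set read 8.6 and 2.1 with TGFb2 and 0.2 and 1.3 with PBS.

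**Figure D4:**
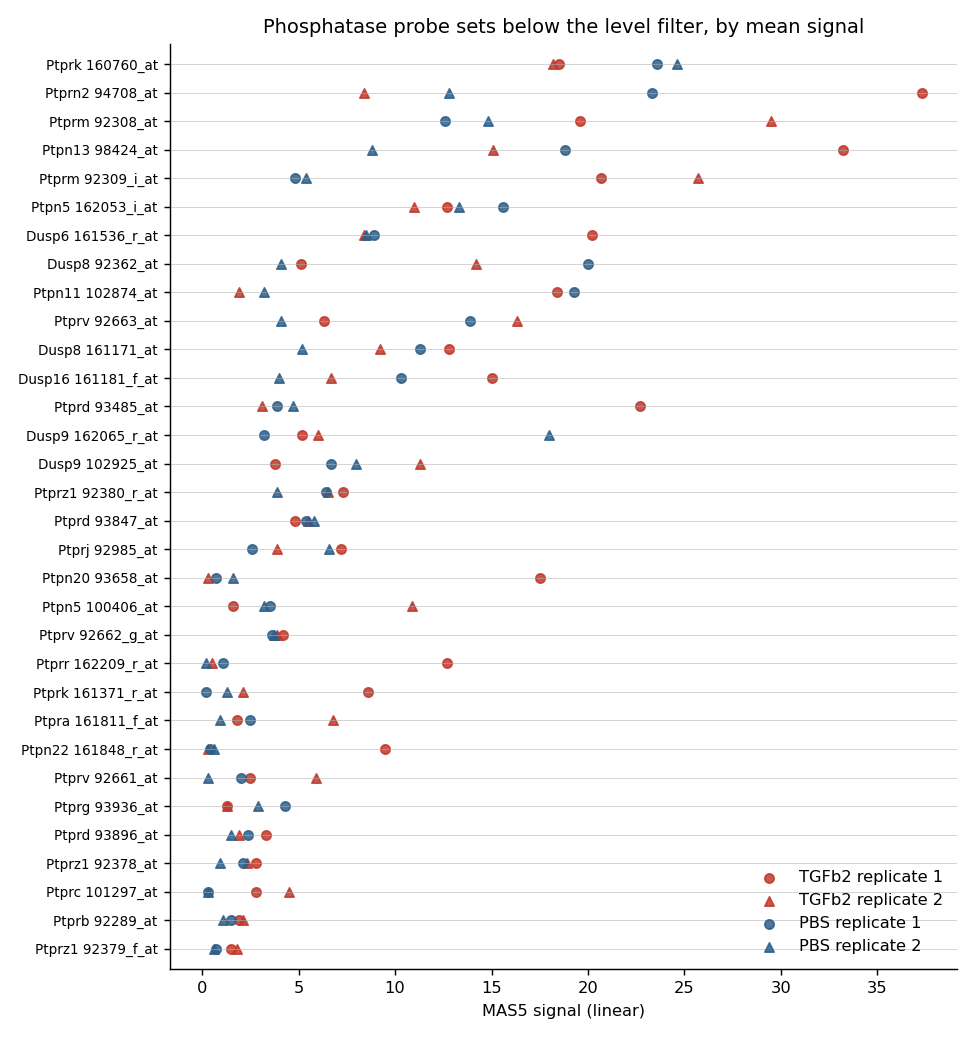
MAS5 signals on a linear scale for the 32 member probe sets below the level filter, 1 row each, ordered by mean signal. Red marks are TGFb2 arrays and blue marks PBS arrays, with circles for replicate 1 and triangles for replicate 2. Both red marks lie to the right of both blue marks for the 2 Ptprm probe sets, and single red circles stand apart for Ptpn20, Ptprd and Ptprn2.

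The kinases, adaptors and other phosphatases around these enzymes were read from 7 lists, each gene by its brightest tested probe set. Counts at an unadjusted p under 0.05 stand beside the 11.6% of all tested probe sets that reached that level in limma. Of the 24 tested kinases of the MAP kinase cascades, 0 passed (1 at an unadjusted p under 0.05), with a median difference of -0.14. The kinase Map3k4, upstream of p38 and JNK, had 19.6 and 26.2 with TGFb2 and 51 and 51.5 with PBS, without overlap (limma adjusted p = 0.24). Braf, upstream of ERK, had 28.2 and 7.8 with TGFb2 and 36.1 and 31.8 with PBS (limma adjusted p = 0.56). Of 12 feedback inhibitors and early targets of ERK, 0 passed and the median was 0.05. At an unadjusted p under 0.05 there were 3, of which 1 was higher and 2 were lower with TGFb2. Spred2, which restrains Ras signalling to ERK, had 18.3 and 31.3 with TGFb2 and 62.7 and 51.6 with PBS (limma adjusted p = 0.24). Myc, a transcription factor induced by growth signals, had 27 and 18.6 with TGFb2 and 43.9 and 37.7 with PBS. It was not among the 3 (unadjusted p = 0.068 and adjusted p = 0.47 in limma).

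Of 13 Src-family and related tyrosine kinases, which these phosphatases act on, 0 passed at either level and the median was -0.20. Fgr had 225 and 461 with TGFb2 and 157 and 301 with PBS, an overlap (limma adjusted p = 0.65). Src had 41.3 and 68.8 with TGFb2 and 83.7 and 82.7 with PBS (limma adjusted p = 0.48). Of 11 inhibitory receptors and adaptors that recruit SH2-domain phosphatases or sit beside them, 1 rose, 0 fell and 10 did not pass, with a median of -0.17. Without overlap, 6 of the 11 were lower and 3 were higher, where 21.7% and 21.1% of all tested probe sets were so. At an unadjusted p under 0.05 in limma, 11.6% of all tested probe sets passed, and 5.86% with lower signals. Of the 11 there were 5, of which 4 were lower and 1 higher. The 1 was Fcgr2b, the inhibitory Fc receptor, at 692 and 710 with TGFb2 and 373 and 386 with PBS (limma adjusted p = 0.0465, and 0.0407 to 0.19 over the alternatives other than the replicate block, of which 5 of 16 kept the call). The probe sets of Fcgr2b, of Map3k4 above and of Socs3 below are of types that can share probes with related transcripts. The next 2 genes were singled out after their values were seen. The adaptor Dok2, which dampens Ras signalling in blood cells, had 112 and 134 with TGFb2 and 249 and 262 with PBS, a difference of -0.98 ± 0.18 (SE, limma adjusted p = 0.054). The inhibitory lectin Clec4a2 had 33.1 and 51.4 with TGFb2 and 80.5 and 163 with PBS (limma adjusted p = 0.18).

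Of 13 JAK, STAT and related genes 0 passed at either level, with a median of -0.07. Stat5b had 6.2 and 40.7 with TGFb2 and 43.6 and 41.2 with PBS, and Socs3, a feedback inhibitor of JAK kinases, had 60.1 and 39.8 with TGFb2 and 38.8 and 28.7 with PBS (limma adjusted p = 0.59 and 0.63). Of 11 other genes of the tyrosine phosphatase superfamily 0 passed at either level, with a median of -0.06. The prenylated phosphatases Ptp4a3 and Ptp4a2 lay on opposite sides of 0. Ptp4a3 had 47.5 and 47.1 with TGFb2 and 34.9 and 22.3 with PBS, and Ptp4a2 had 325 and 497 with TGFb2 and 533 and 606 with PBS (limma adjusted p = 0.50 and 0.45). Of 12 catalytic subunits of serine/threonine phosphatases, 0 passed (2 at an unadjusted p under 0.05), with a median of -0.14. Ppp1cb had 97.9 and 111 with TGFb2 and 161 and 164 with PBS, and Ppp6c had 279 and 180 with TGFb2 and 348 and 396 with PBS (limma adjusted p = 0.24 and 0.27). Medians below 0 were found in 6 of the 7 lists, where the median over all 5639 tested genes was 0.00270. These medians cover only genes above the filter, in short lists chosen with earlier results of these data known. They describe those genes and were not tested as sets.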

How the data were processed

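The deposited values are probe set intensities on a linear scale, made by the authors with MAS5 (per the submitters' processing notes; no version is named). They lie between 0.1 and 15281. Because all 4 arrays share a 2% trimmed mean of 150.1, no scaling was added. Scanner files and detection calls were not used here. Symbols came from the platform annotation (10833 of 12422 non-control probe sets with 1 symbol, 396 with several, 1193 with none) and 10817 matched the GRCm38.p6 gene table by gene ID.

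Probe sets with a mean log2(signal + 15) at or above the 40th percentile were tested. This scale replaced the mean signal after a first fit, and leave-outs were set to keep these probe sets after a first run that recomputed the filter. The pseudocount of 15 is 10% of the trimmed mean. TGFb2 was set against PBS by lmFit and eBayes with intensity trend, of limma 3.58.1 under R 4.3.3 (2 residual and 5.6 prior degrees of freedom), two-sided, adjusted over 7453 probe sets, threshold 0.05. The median SE was 0.21, and the number of arrays limits precision. The script was tested on simulated data. The members, the gene lists and the naming rule were chosen with earlier results of these data known. Named were all passing members, the 2 largest differences per role group, the 5 brightest members, every probe set of genes with several, and 14 genes with known roles in macrophages. Of the 14, Dusp4 and Dusp5 had no member probe set and so have no values here. Of pathway lists, passing genes or the 2 largest differences were eligible. Alternatives covered the pseudocount, normalization, filter, variance model, replicate block and leaving out each array. Array dates were not analysed here as batches.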

Additional observations from a re-analysis of the deposited data

How the results depend on the processing

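Of the 17 alternatives, 5 were the settings run first, namely a filter on the mean signal and leave-outs with a recomputed filter. The main filter scale and the leave-outs with a fixed tested set replaced them after those first runs. Of the 30 tested members, 14 were lower and 1 was higher with TGFb2 in each of the 17 alternatives that tested them. Another 15 changed sign under at least 1. Dusp16 and Ptpn2, among the 14, were untested under a 60th percentile filter. The lower ones include Dusp1 (-1.29 to -0.81 when each array was left out) and the brightest Ptprc probe set (-0.96 to -0.74). With the tested set held as in the full data, neither passed except with the replicate number as a block, where adjusted p was 0.00141 for Dusp1 (-1.05) and 0.00813 for Ptprc (-0.85). In that fit 2 members and 320 probe sets passed, against 0 and 88. The numbers share no stated origin, and the deviations of same-numbered arrays correlated at 0.149, so the block rests on the number alone. Dusp1 also passed (-1.29, adjusted p = 0.0496), and with it 1 member and 51 probe sets, without PBS replicate 2 when the filter was recomputed on the remaining arrays. That was how the leave-outs were first run, and they were changed to a fixed tested set after this result was seen. A filter on the mean signal, the scale first tried, gave 87 probe sets and 0 members. The count over all probe sets was 57 without a pseudocount, 6 without the filter, 16 without the intensity trend and 11 to 42 when each array was left out (10 to 51 with the filter recomputed). The member median was 0.046 without the filter, where 62 probe sets entered, and -0.20 to -0.12 when each array was left out (-0.22 to -0.11 with the filter recomputed). Of the pathway lists 1 gene passed, against 2 with the filter at the 60th percentile, 5 with the replicate block and 0 without a pseudocount, filter, intensity trend or any 1 array. Reversals were Ptprcap at 0.016 with cyclic loess, the brighter Ptprj at -0.0037 with quantile normalization and, with an array left out, Dusp11 (-0.067 to 0.17), Dusp12 (-0.0068 to 0.66), Dusp2 (-0.033 to 0.36), Ptpn1 (-0.20 to 0.35), Ptpn12 (-0.91 to 0.65), Ptpn14 (-0.22 to 0.10), Ptpn18 (-0.066 to 0.37), Ptpn21 (-0.45 to 0.15), Ptprcap (-0.020 to 0.014), Ptpre (-0.077 to 0.11), Ptprf (-1.02 to 0.0099), the dimmer Ptprj (-0.12 to 0.25), the brighter Ptprj (-0.19 to 0.27), Ptprn (-0.35 to 0.42) and Ptprr (-0.21 to 0.50). Apart from these leave-outs, which use fewer arrays, the cause was not tested. Dim probe sets and 2 arrays per group limit what can be told for the 32 members below the filter.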
